A study of Arabidopsis thaliana with 6 samples.

Results

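The transcripts of 5 JASMONATE ZIM-DOMAIN (JAZ) repressor genes, *JAZ10*, *JAZ6*, *JAZ5*, *JAZ2* and *JAZ1*, were followed in roots of *Arabidopsis* seedlings with and without functional NINJA. The members are 5 probe sets out of 22746 tested, 250292_at for *JAZ10*, 260429_at for *JAZ6*, 261033_at for *JAZ5*, 262171_at for *JAZ2* and 256017_at for *JAZ1*. The mutant roots were *ninja-1* and the control roots were WT, both in the Col-0 ecotype and both carrying the JAZ10pro-GUSPlus (JGP) reporter. Seedlings were 5 days old, untreated and grown aseptically, and each of the 3 biological replicates per genotype was a pool of 120 roots hybridized to 1 Affymetrix ATH1 array. The controls therefore carry the same transgene as the mutant, and the 1 mutant allele studied here is the limit of the genetic model. It is not given in the sources used here whether the reporter RNA can be read by the *JAZ10* probe set. Whole roots were extracted, so more cells with a transcript and more transcript per cell cannot be told apart.

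JAZ proteins hold back the transcription factors of the jasmonate (JA) response. They bind MYC factors through the C-terminal Jas motif and bind NINJA through the TIFY motif, and NINJA connects them to the co-repressor TOPLESS. When the hormone JA-Ile accumulates, the receptor COI1 binds JAZ proteins and they are degraded. Many *JAZ* genes are themselves targets of the MYC factors, so that newly made repressor closes the loop, and *JAZ10* is widely used as an early marker of JA signalling.

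The names of the 5 probe sets need a limit. The array annotation used here names none of them. Each name was set in advance with its probe set, then checked against a list that the study drew from these same arrays. Each was the only probe set whose change and adjusted p fell next to those of its gene in that list. For that reason the members were bound to be changed, and their number in 1 direction is not independent evidence. The other 8 of the 13 *JAZ* genes, *JAZ3*, *JAZ4*, *JAZ7*, *JAZ8*, *JAZ9*, *JAZ11*, *JAZ12* and *JAZ13*, were not analysed here, so the order given below is an order of 5 members and not of the family. RefSeq lists 7 transcripts for *JAZ10*, 3 each for *JAZ5* and *JAZ1* and 2 each for *JAZ6* and *JAZ2*. Splice forms are not separated by these values.

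All levels are GCRMA values on the log2 scale, as the authors deposited them, with a floor of 2.11, the lowest value on every array. Array medians were 5.95 to 6.03. The transcript of *NINJA*, whose probe set was named by its match to the study's list, was 7.30, 7.05 and 7.13 in *ninja-1* and 9.60, 9.52 and 9.72 in WT. It fell by 2.45 (standard error 0.09, adjusted p = 0.00436 from limma), to 18.3% of its WT level, so the mutant still held a measurable *NINJA* transcript. Of 12 root markers 2 were measured, and neither was near the floor: *PYK10*, a beta-glucosidase of root ER bodies, averaged 13.94 ± 0.01 in *ninja-1* and 13.63 ± 0.03 in WT, and the root hair expansin gene *EXPA7* 8.91 ± 0.08 in *ninja-1* and 8.76 ± 0.09 in WT (SD, n = 3 each). *RCA*, for Rubisco activase and the only leaf marker of 7 that was measured, averaged 10.26 ± 0.21 in *ninja-1* and 10.16 ± 0.03 in WT (SD, n = 3 each), a log2 change of 0.11 (adjusted p = 0.816). *RCA* was thus also far above the floor, and these few markers cannot tell root from leaf tissue. *PYK10* moved with the genotype by 0.30 (adjusted p = 0.00838). The part of tissue make-up in the changes below was not tested.

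All 5 *JAZ* transcripts were higher in *ninja-1* roots. The rise was 33.4-fold for *JAZ10*, of uncertain size, and between 2.92-fold and 4.82-fold for the other members. Each was called, that is, it passed an adjusted p of 0.05 in a linear model fitted with limma over all probe sets and changed at least 2-fold, as 0.492% of all probe sets did in this direction. Each also had every *ninja-1* array above every WT array, as 7.75% of all probe sets did. Nothing about the members is read from these counts, since the names were checked through the same comparison. The median log2 change of the 5 was 2.03, and 3 of the 5 rose at least 4-fold, against 41 of all 112 probe sets called higher, out of 22746 tested. *JAZ5* was 1 of the 3 at 4.08-fold, but rose 3.68-fold with values under 4 set to 4. This count is not read as a result either.

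**Figure D1:**
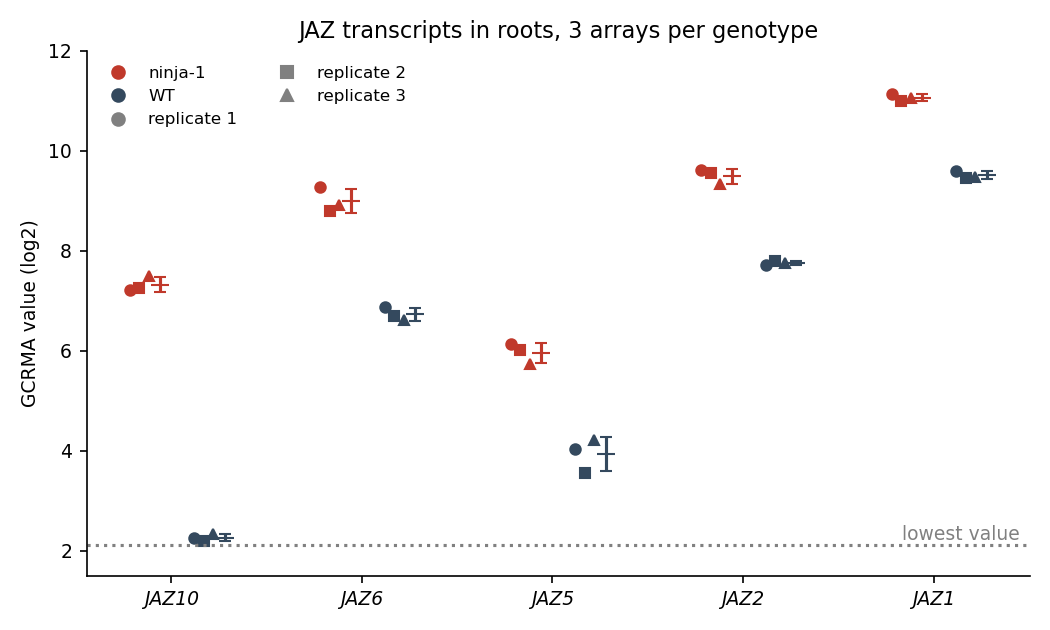
GCRMA values (log2, vertical axis) of 5 *JAZ* transcripts, with *ninja-1* in red and WT in dark blue; each point is 1 array, the shape gives its replicate number and the bar is the mean with its SD (n = 3). *JAZ10* in WT sits at 2.20 to 2.34 next to the lowest value of 2.11 (dotted line), and in every gene the 3 *ninja-1* points lie above the 3 WT points.

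*JAZ10* was next to the floor in WT roots. Its values were 7.22, 7.26 and 7.49 in *ninja-1* and 2.25, 2.20 and 2.34 in WT. The lowest *ninja-1* array lay 4.88 above the highest WT array, a gap 17.8 times as wide as the wider of the ranges within a genotype. The mean was 7.32 ± 0.15 in *ninja-1* and 2.26 ± 0.07 in WT (SD, n = 3 each), and the WT mean stood only 0.15 above the floor. The log2 change was 5.06 (standard error 0.09, 95% interval 4.82 to 5.31, adjusted p = 0.00144). A WT value so close to the floor cannot give a basal level, so the size of the rise is uncertain in a way that the interval does not cover. With every value under 4 set to 4, the rise was 3.32 on the log2 scale or 10.0-fold (adjusted p = 0.00194). Of 6932 probe sets with all 3 WT arrays under 2.5, 3 were called higher, and 2 had all *ninja-1* arrays above 7. *JAZ10* is itself in both counts and its name was checked through this same comparison, so nothing about it is read from them.

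*JAZ6* and *JAZ5* are close relatives, also named TIFY11B and TIFY11A. *JAZ6* was measured in WT at 4.62 above the floor. Its values were 9.27, 8.80 and 8.92 in *ninja-1* and 6.87, 6.70 and 6.62 in WT. The genotypes were 1.94 apart at their nearest arrays, 4.12 times the wider range. The transcript rose 4.82-fold, a log2 change of 2.27 (standard error 0.15, 95% interval 1.86 to 2.68, adjusted p = 0.0133). In *ninja-1*, *JAZ6* had the widest range of the 5 members, 0.47, with replicate 1 highest. Leaving out *ninja-1* replicate 1 kept the call (adjusted p = 0.0392), whereas leaving out any other array ended it, with adjusted p of 0.06 for the removal of *ninja-1* replicate 2, 0.0531 for that of *ninja-1* replicate 3, and 0.0692, 0.0930 and 0.0787 for those of WT replicates 1, 2 and 3. The log2 change itself stayed between 2.13 and 2.37.

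*JAZ5* was dim in WT roots, with a mean 1.83 above the floor. Its values were 6.13, 6.02 and 5.74 in *ninja-1* and 4.04, 3.55 and 4.22 in WT. The WT arrays spread over 0.66, the widest range of any member in either genotype, yet the genotypes did not overlap and were 1.52 apart at their nearest arrays. The transcript rose 4.08-fold, a log2 change of 2.03 (standard error 0.22, 95% interval 1.44 to 2.62, adjusted p = 0.0450). This adjusted p was the highest of the 5 members. The call was lost whichever array was left out, with adjusted p of 0.151, 0.178 and 0.0863 without *ninja-1* replicates 1, 2 and 3 and of 0.155, 0.0923 and 0.109 without WT replicates 1, 2 and 3, while the log2 change stayed between 1.84 and 2.17.

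*JAZ2* and *JAZ1* form another pair of relatives, TIFY10B and TIFY10A. JAZ1 was one of the founding members of the family and can bind the histone deacetylase HDA6 directly, and JAZ2 is known for its part in guard cells of the leaf. *JAZ2* was 9.61, 9.55 and 9.33 in *ninja-1* and 7.72, 7.79 and 7.76 in WT. The WT arrays lay within 0.07 of each other, the narrowest range of any member, and the genotypes were 1.54 apart at their nearest arrays. The rise was 3.34-fold, a log2 change of 1.74 (standard error 0.08, 95% interval 1.52 to 1.96, adjusted p = 0.00745). The call was lost by a small margin without *ninja-1* replicate 2 (adjusted p = 0.0544), WT replicate 1 (0.0545) or WT replicate 2 (0.0562) and was kept without each of the other arrays.

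*JAZ1* had the smallest rise of the 5 members. Its values were 11.13, 10.99 and 11.05 in *ninja-1* and 9.60, 9.46 and 9.47 in WT. The gap between the genotypes, 1.39, was 9.90 times the wider of the ranges. The rise was 2.92-fold, a log2 change of 1.55 (standard error 0.06, 95% interval 1.40 to 1.70, adjusted p = 0.00443). *JAZ1* and *JAZ10* were the members that were called with any 1 array left out, with adjusted p of up to 0.0341 for *JAZ1* and up to 0.0220 for *JAZ10*. The WT mean of *JAZ1* stood 7.40 above the floor, which leaves its fold change free of that limit. A WT mean of at least 9, as *JAZ1* had, was found for 3724 probe sets, and 16 of these, with *JAZ1* among them, were called higher. Of all 22746 probe sets tested, 112 were called higher, and nothing about *JAZ1* is read from these counts. Basal levels are read here only against the floor, because probes differ in their response and the level of 1 probe set cannot be ranked against that of another.

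**Figure D2:**
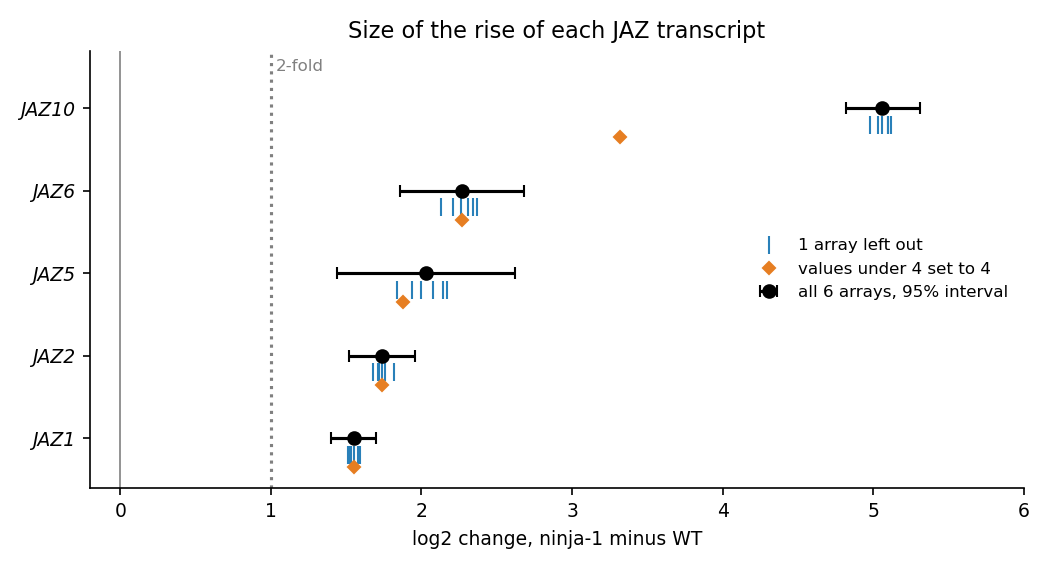
Log2 change of each *JAZ* transcript, *ninja-1* minus WT (horizontal axis), with its 95% interval from limma (black), the changes with 1 array left out (blue ticks) and the change with values under 4 set to 4 (orange). Only *JAZ10* and *JAZ5* move when values under 4 are raised, to 3.32 and 1.88, and *JAZ10* keeps the largest change.

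The order of the rises was *JAZ10*, *JAZ6*, *JAZ5*, *JAZ2* and *JAZ1*. To ask which steps in this order exceed the spread between arrays, the difference between 2 members was taken within each array and compared between the genotypes, for all 10 pairs. With 3 arrays against 3 the exact permutation test (two-sided) cannot give a p below 0.1, which becomes 0.167 when adjusted over the 10 pairs, so no pair could pass. In 6 pairs the within-array differences did not overlap between the genotypes, which gives this smallest p, and in 4 they overlapped. The pairs share members, and every pair with *JAZ10*, whose WT value is next to the floor, is among the 6. The share of such pairs among other probe sets was not computed, so nothing is read from this count.

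No pair with *JAZ10* passed the exact permutation test (p = 0.1, or 0.167 adjusted over the 10 pairs). By estimate only, *JAZ10* had a larger rise than each of the other members. Its log2 change was larger by 2.79 than that of *JAZ6* (standard error 0.22), by 3.03 than that of *JAZ5* (0.26), by 3.32 than that of *JAZ2* (0.18) and by 3.52 than that of *JAZ1* (0.12), none of these with overlap. With values under 4 set to 4 these differences shrank to 1.05, 1.44, 1.59 and 1.78 and still did not overlap. Below *JAZ10*, the within-array differences of neighbours in the order all overlapped between the genotypes. *JAZ6* exceeded *JAZ5* by 0.24 (standard error 0.25, exact p = 0.6), *JAZ5* exceeded *JAZ2* by 0.29 (standard error 0.22, exact p = 0.2) and *JAZ2* exceeded *JAZ1* by 0.19 (standard error 0.10, exact p = 0.3). *JAZ6* exceeded *JAZ2* by 0.53 (standard error 0.15) and *JAZ1* by 0.72 (standard error 0.11), both without overlap. Their exact p was 0.1, the smallest possible, or 0.167 adjusted over the 10 pairs, so these differences did not pass either. *JAZ5*, with its wider spread, exceeded *JAZ1* by 0.48 (standard error 0.22, exact p = 0.2) with overlap. The differences overlapped within both pairs of close relatives, *JAZ6* with *JAZ5* and *JAZ2* with *JAZ1*. They also overlapped for *JAZ5* with *JAZ2* and with *JAZ1*, which are not such pairs. As no pair could pass this test, nothing about relatives is read from this.

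**Figure D3:**
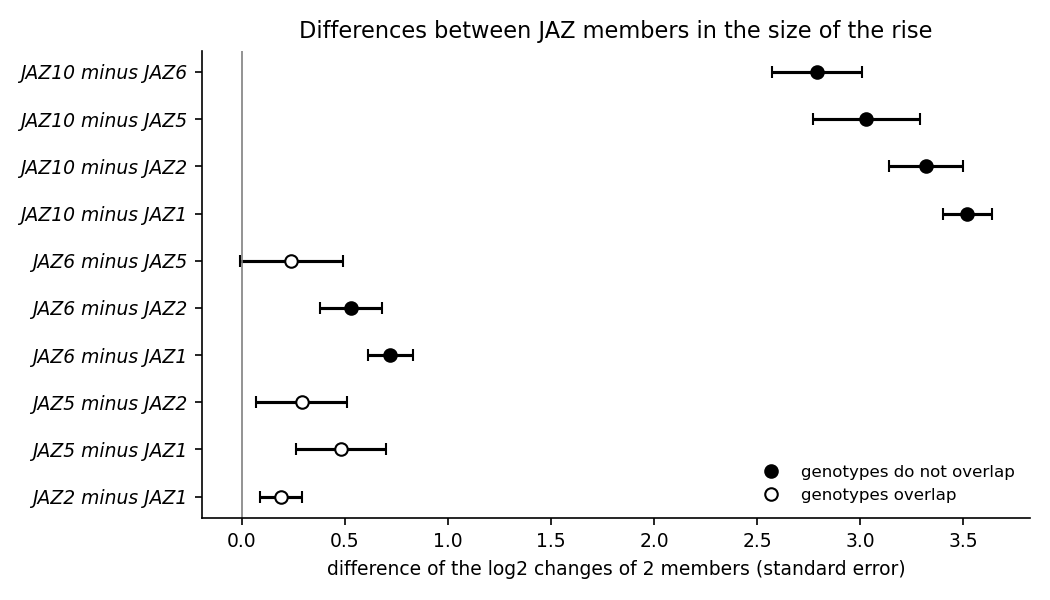
Difference between the log2 changes of 2 *JAZ* members (horizontal axis) for all 10 pairs, with its standard error; filled points are pairs whose within-array differences do not overlap between the genotypes. The 4 pairs with *JAZ10* lie at 2.79 to 3.52, or 1.05 to 1.78 with values under 4 set to 4, and the other 6 at 0.19 to 0.72.

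Among the 112 probe sets called higher, the members ranked 3 (*JAZ10*), 29 (*JAZ6*), 40 (*JAZ5*), 54 (*JAZ2*) and 66 (*JAZ1*) by the log2 rise. The rank of *JAZ10* depends on its WT value at the floor. With values under 4 set to 4, the ranks were 10, 24, 38, 44 and 59 of 97 probe sets called higher, in the same order.

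**Figure D4:**
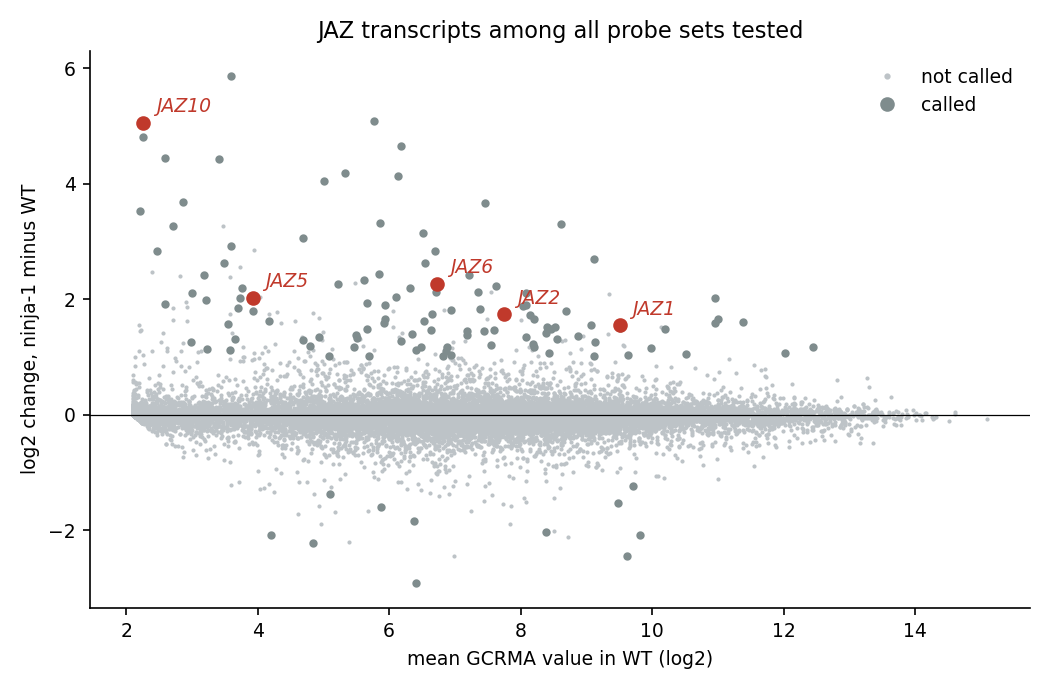
Log2 change, *ninja-1* minus WT (vertical axis), against the mean GCRMA value in WT (horizontal axis, log2) for the 22746 probe sets tested; called probe sets are dark grey and the 5 *JAZ* transcripts red. *JAZ10* lies at the left edge with a change of 5.06, and *JAZ1* at a WT mean of 9.51 with a change of 1.55.

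The small differences between replicates were not shared by all members. In *ninja-1*, *JAZ6*, *JAZ5*, *JAZ2* and *JAZ1* were highest on replicate 1, by 0.27, 0.17, 0.11 and 0.07 above their means, and *NINJA* was highest there as well, by 0.14. *JAZ10* was lowest on that array and highest on replicate 3, by 0.17, where *JAZ5* and *JAZ2* were lowest. The median of all probe sets was 6.01 on *ninja-1* replicate 1, against 5.95 and 5.97 on the other two, and the part of this in the deviations was not tested. In WT, *JAZ6* and *JAZ1* were highest on replicate 1, *JAZ10* and *JAZ5* on replicate 3 and *JAZ2* on replicate 2. These deviations, from −0.38 to 0.28, were small beside the gaps of 1.39 to 4.88 between the genotypes.

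**Figure D5:**
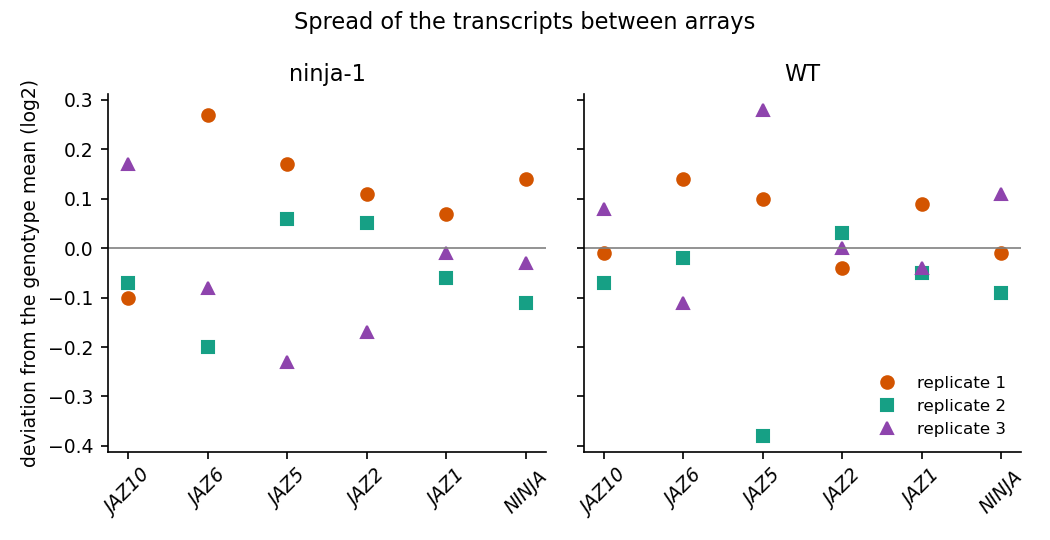
Deviation of each array from the mean of its genotype (vertical axis, log2) for the 5 *JAZ* transcripts and *NINJA*, with *ninja-1* on the left and WT on the right; shape and colour give the replicate number. In *ninja-1*, 4 of the 5 *JAZ* transcripts are highest on replicate 1 and *JAZ10* is lowest there; the largest deviation, −0.38, is that of *JAZ5* on WT replicate 2.

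The partners of the JAZ proteins could be followed only in part, since 13 of 85 listed genes of the JA pathway had a probe set with a single name. None of these 13 was another TIFY protein, a member of the co-repressor complex or a subunit of the COI1 receptor complex, and *NINJA* itself was named only through the study's gene list. Of 11 transcription factor genes and partners bound by JAZ proteins 3 were measured, and none passed the adjusted p, as 0.805% of all probe sets did with a rise and 0.374% with a decrease. *MYC3* was 7.77, 7.53 and 7.61 in *ninja-1* and 7.30, 7.25 and 7.54 in WT, which differ by 0.27 (standard error 0.11, adjusted p = 0.421), with the lowest *ninja-1* array just under the highest WT array. *MYC4* differed by 0.04 (standard error 0.14, adjusted p = 1), and *BHLH14*, a repressor of JA responses, was at 2.11 on all 6 arrays.

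Among 5 measured genes of JA turnover, 1 passed the adjusted p, and *JOX1* and *JMT*, for a JA methyltransferase, were at the floor in both genotypes (2.11, with *JOX1* at 2.12 on 1 *ninja-1* array). *JOX2*, an oxygenase that hydroxylates JA, was 9.52, 9.53 and 9.40 in *ninja-1* and 7.17, 7.44 and 7.45 in WT, a rise of 4.38-fold (adjusted p = 0.00636), of a size between those of *JAZ6* and *JAZ5*. Its relatives *JOX3* and *JOX4* did not pass. *JOX3* was 3.12, 3.73 and 4.12 in *ninja-1* and 2.21, 2.22 and 2.20 in WT (log2 change 1.44, standard error 0.28, adjusted p = 0.132), so that its WT arrays were next to the floor, as those of *JAZ10* were, but its *ninja-1* arrays spread over a far wider range. *JOX4* was 3.29, 4.13 and 4.41 in *ninja-1* and 2.81, 2.90 and 2.81 in WT (log2 change 1.10, adjusted p = 0.273). In JA synthesis 0 of 2 measured genes passed: *OPCL1*, a CoA ligase for JA precursors, was 9.54, 9.22 and 9.33 in *ninja-1* and 8.31, 8.51 and 8.58 in WT (adjusted p = 0.0667), and *AIM1*, of beta-oxidation, differed by −0.02 (adjusted p = 1). Of 9 listed JA-inducible defence genes 3 were measured, *THI2.1*, *PDF1.2a* and *PDF1.2b*, and for these every array gave 2.11, the floor. The other 6 were not analysed.

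The called genes whose values followed the 5 members most closely were sought by Pearson's r over the 6 arrays with the mean of the standardized members. As both sets were called in this comparison, a high r is largely given by the genotypes, and 26 of the 60 named candidates had an r above 0.99. The closest 6 were *MSRB6*, for a methionine sulfoxide reductase (r = 0.9991), AT3G59710, for a Rossmann-fold protein (0.9983), AT4G29700, for an alkaline phosphatase-like protein (0.9982), *JAL22*, for a jacalin-related lectin (0.9975), *2A6*, for an oxygenase (0.9964), and AT3G59340, of unknown function (0.9963). *MSRB6* was 10.28, 10.24 and 10.18 in *ninja-1* and 8.89, 8.86 and 8.87 in WT, a log2 change of 1.36 (adjusted p = 0.00159). AT3G59710 rose by far more, 21.5-fold (log2 change 4.43, adjusted p = 0.00632), from WT values of 3.61, 3.03 and 3.59 that make this size uncertain.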

How the data were processed

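Total RNA of 5-do roots was measured on Affymetrix ATH1 arrays, 3 per genotype. The deposited values are log2 values that the authors made with GCRMA in R, which corrects the background from probe sequence, quantile normalizes the arrays and summarizes each probe set. The version of GCRMA is not given in the sources used here. No further normalization was applied. The 64 control probe sets of 22810 were left out, with no filter on low values. Genotypes came from the sample labels. The comparison was fitted with limma 3.58.1 under R 4.3.3 (lmFit, eBayes, 1 term for genotype, two-sided, Benjamini-Hochberg adjustment), called at an adjusted p of 0.05 and 2-fold, and tested on simulated data. The limma p-values set the genotype difference against the spread between these pools of roots, which eBayes moderates over all probe sets. Pairs of members were compared with the exact permutation test of SciPy 1.17.1.

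The names of the members were set in advance and checked against the study's gene list, and *NINJA* was named through that list. A single probe set had to lie near the gene, with tolerances of 0.06 plus 0.5% in fold change and 6e-04 in adjusted p. Other genes were named through the array annotation and RefSeq (TAIR10.1), which give 13436 probe sets 1 gene. Lists held 1 probe set per gene, the brightest. All measured JAZ partners were to be named, and of the other JA lists those past the adjusted p and the 2 with the smallest p; *PDF1.2a*, *PDF1.2b*, *THI2.1* and the 2 markers *PYK10* and *EXPA7* were named in full. The members and lists were chosen with earlier results of these data known. Alternatives were eBayes with trend and robust settings, median centring, quantile normalization, the removal of dim probe sets, values under 4 set to 4, linear means, a replicate block and leaving out each array. No batch is given in the labels, and no genome build for coordinates or sequences. The number of arrays limits the precision.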

Additional observations from a re-analysis of the deposited data

How the results depend on the processing

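The direction of the rise of all 5 *JAZ* transcripts was kept under every alternative run. The 10 differences between members were rerun only with values under 4 set to 4 and with each array left out, and all kept their direction. The calls of the 5 were kept with eBayes with trend and robust settings, without dim probe sets (log2 value above 4 in at least 3 arrays), after median centring, after another quantile normalization and with values under 4 set to 4. With 1 array left out, the log2 changes ranged over 4.98 to 5.12 (*JAZ10*), 2.13 to 2.37 (*JAZ6*), 1.84 to 2.17 (*JAZ5*), 1.68 to 1.82 (*JAZ2*) and 1.51 to 1.59 (*JAZ1*), and the adjusted p was kept in 6, 1, 0, 3 and 6 of the 6 fits. The number called higher was 33 to 83 and the number called lower 3 to 12 in these fits, which hold fewer arrays, against 112 and 11 with all arrays. Without dim probe sets 170 were called higher and 58 lower, and after median centring 170 and 40; the cause was not tested. With the replicate block, 0 were called higher and 0 lower by limma. The members' changes were the same under this block, 5.06, 2.27, 2.03, 1.74 and 1.55, with adjusted p of 0.0601, 0.0909, 0.222, 0.115 and 0.0601. The labels describe no pairing. Over probe sets, the deviations of arrays with the same number had correlations of 0.0949, 0.0502 and 0.150. Those of arrays with different numbers ranged from −0.211 to 0.152. Whether arrays with the same number share a batch was not tested. The floor limits what can be said of *JAZ10* in WT.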
